A study of Mus musculus with 11 samples.

Results

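The Hist2 cluster is a group of replication-dependent histone genes on mouse chromosome 3. It was taken here as the stretch from 96.015 to 96.09 Mb of chromosome 3 in the mm9 assembly, 75001 bases that hold the Hist2 genes and some sequence on each side. Every distinct HIV integration site in it, that is, every combination of position and strand found in a library, was counted. There were 820 such sites out of 831994 in the 11 libraries together.

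The libraries come from HIT-seq, in which a chromatin protein is fused to the integrase-binding domain (IBD) of LEDGF, the host factor that normally tethers HIV integrase to chromatin. All cells were mouse embryonic fibroblasts of C57BL/6 strain and LEDGF-/- genotype, so that the fusion supplied the tether, and all were infected with HIV. Fusions were expressed from electroporated plasmids, and each protein had 1 library. The Integrator and SOSS side had 6 libraries: INTS9 and INTS11, INTS3, NABP1, NABP2 and INIP. The other side had 5: the NELF subunits NELFA, NELFB, NELFCD and NELFE, and SPT5. Different subunits thus stand in for replicates, and p-values measure the spread between them. The 6 Integrator and SOSS libraries held 24907 (INIP) to 197069 (INTS9) sites and the other 5 held 18753 (NELFE) to 82038 (SPT5). All 4 NELF libraries came from 1 flow cell that carried no other library, and SPT5 came from its own, so a difference between families cannot be told apart from one between flow cells. Cells with an unfused IBD were not analysed here, and integration sites carry no measure of cell identity.

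Replication-dependent histone genes are short and without introns, and their mRNAs end in a conserved stem-loop instead of a poly(A) tail. The pre-mRNA is cut just past the stem-loop by a complex that includes the endonuclease CPSF73. INTS11 is the endonuclease of the Integrator complex and is related to CPSF73, and INTS9 is its catalytically inactive partner. INTS3 belongs to Integrator and also joins NABP1 or NABP2, which bind single-stranded DNA, and INIP in the SOSS complex of the DNA damage response. NELF holds RNA polymerase II in a paused state near gene starts together with DSIF, of which SPT5 is the larger subunit, and NELFE is its RNA-binding subunit. NELF has also been linked to the processing of histone mRNA ends.

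The annotation lists 10 histone genes in the region. From left to right these are Hist2h2ab, Hist2h2ac and Hist2h2be (2 H2A genes and an H2B gene), Hist2h3c2 and Hist2h2aa2 (H3 and H2A), their mirror-image copies Hist2h2aa1 and Hist2h3c1, Hist2h4 (H4), Hist2h3b (H3) and Hist2h2bb (H2B). A stem-loop motif, GGNNCTTTTNAGNNCC, was found past the stop codon of 9 of them, and no match was found in the window searched at Hist2h2be. Since the question is on which side of a gene the sites lie, these ends are given first. Each line holds 30 bases of mm9 on the strand of the gene, 5′ to 3′, with the 16 bases of the stem and loop in capitals.
Hist2h2ab, chr3:96024256-96024285, plus strand: GGCTCTTTTAAGAGCCaccaaagtgtcatc
Hist2h2ac, chr3:96024327-96024356, minus strand: GGCTCTTTTTAGAGCCaccaaatcttttac
Hist2h3c2, chr3:96042394-96042423, minus strand: GGCTCTTTTCAGAGCCaccacagcttcccg
Hist2h2aa2, chr3:96043693-96043722, minus strand: GGCTCTTTTCAGAGCCacccactgaatcag
Hist2h2aa1, chr3:96049955-96049984, plus strand: GGCTCTTTTCAGAGCCacccactgaatcag
Hist2h3c1, chr3:96051250-96051279, plus strand: GGCTCTTTTCAGAGCCaccacagcttcccg
Hist2h4, chr3:96066848-96066877, minus strand: GGCCCTTTTTAGGGCCaaccacagtctctt
Hist2h3b, chr3:96073058-96073087, plus strand: GGCTCTTTTCAGAGCCacctacgttgtcga
Hist2h2bb, chr3:96074094-96074123, plus strand: GGCTCTTTTCAGAGCCactttagttctcaa

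Hist2h3c1 and Hist2h3c2 have the same 30 bases, as do Hist2h2aa1 and Hist2h2aa2. The coding sequence of Hist2h3c2, which the annotation used here lists as a pseudogene, was 100% identical to that of Hist2h3c1. Of all junction positions in the region, 11.4% begin a stretch of 50 bases that also occurs elsewhere in the genome. They include 10 segments of at least 100 bases, 6755 bases in all, which cover most of these 4 copied genes, part of Hist2h3b and 3086 bases past Hist2h2bb. These segments held 0 sites in any library, so few sites in these bodies cannot be read as an absence of integration. From start codon to stem-loop, Hist2h2aa1 and Hist2h2aa2 had 0 sites, and Hist2h3c1 and Hist2h3c2 had 1 each.

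The upstream end is shown for Hist2h2aa1, which had more NELF and SPT5 sites than Integrator and SOSS sites in front of it. The line gives 250 bases before and 30 bases from the annotated start in mm9, with matches to CCAAT and TATAAA on either strand in capitals. CCAAT binds NF-Y and TATAAA the TATA-binding protein in many promoters.
Hist2h2aa1, chr3:96049211-96049490, plus strand: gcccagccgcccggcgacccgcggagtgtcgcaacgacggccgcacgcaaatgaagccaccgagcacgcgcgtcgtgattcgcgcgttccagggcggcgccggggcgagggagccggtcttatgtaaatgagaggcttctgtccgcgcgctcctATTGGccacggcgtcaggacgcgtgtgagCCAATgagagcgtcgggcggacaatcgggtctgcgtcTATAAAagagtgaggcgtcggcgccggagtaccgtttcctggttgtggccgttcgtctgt

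Hist2h2aa1 had 2 matches to CCAAT and 1 to TATAAA. Over 32851 RefSeq promoter sequences (GRCm38.p6), 37.4% held CCAAT and 13.6% held TATAAA on either strand. These matches are a description of the letters only.

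The whole cluster was among the most frequent targets in every library, and its density was lower on the Integrator and SOSS side than on the NELF and SPT5 side. By total sites it ranked 2 among the 35214 windows of 75 kb in the genome. Its rank within a library lay between 2 in NELFE and 27 in INIP. At uniform density 2.84 sites per 100000 would fall there, and the mean was 22.9 ± 10.8 times that in Integrator and SOSS (SD, n = 6) and 90.5 ± 44.5 times in NELF and SPT5 (SD, n = 5).

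Per 100000 sites of the library, INTS9 had 35.01 sites in the cluster (95% exact Poisson interval 27.2 to 44.3, from 69 sites) and INTS11 had 61.9 (38.3 to 94.6, from 21 sites). INTS3 had 100.7 (81.7 to 123, from 97 sites), NABP1 65.3 (54.3 to 77.9, from 123 sites) and NABP2 99.8 (80.0 to 123, from 88 sites). INIP was lowest with 28.1 (11.3 to 57.9), which rests on 7 sites. The subunits of SOSS thus differed among themselves by more than counting error, with INTS3 and NABP2 above NABP1. NELFA had 223 (172 to 283, from 67 sites), NELFB 300.4 (242 to 368, from 93 sites), NELFCD 223 (180 to 273, from 92 sites) and NELFE 443 (353 to 549, from 83 sites). SPT5 had 97.5 (77.3 to 121, from 80 sites), which lies below INTS3 and NABP2, so the sides overlap through SPT5 alone and every NELF library lay above every Integrator and SOSS library. These intervals cover counting error only, since PCR without molecular identifiers was used.

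**Figure D1:**
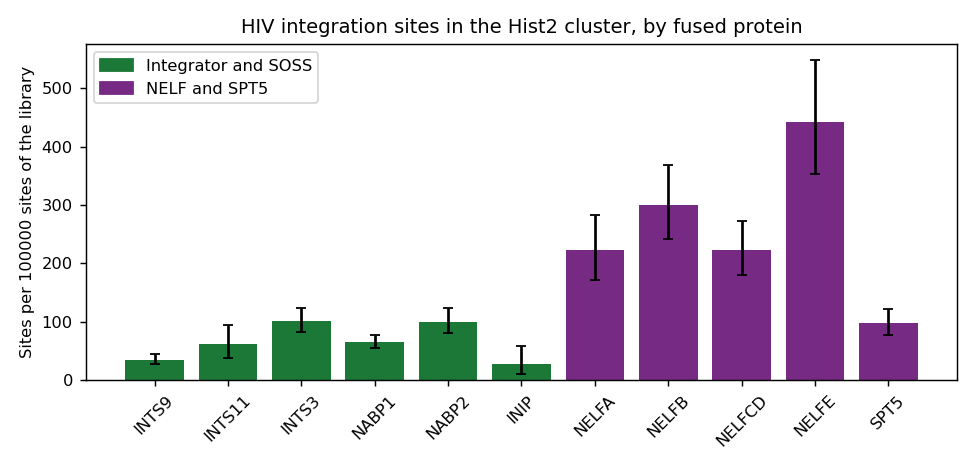
Sites in the Hist2 cluster per 100000 sites of each library (vertical axis, linear) for the 6 Integrator and SOSS libraries (green) and the 5 NELF and SPT5 libraries (purple). Error bars are 95% exact Poisson intervals, and the NELF bars stand between 223 and 443 while SPT5, at 97.5, stands beside INTS3 and NABP2.

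Integrator and SOSS averaged 65.1 ± 30.8 sites per 100000 (SD, n = 6) and NELF and SPT5 257 ± 127 (SD, n = 5). On the log2 scale, with 1 site per 100000 added, the difference was -1.96 (SE 0.46), with an adjusted p of 0.026 by limma over the 883 windows of 75 kb that averaged 10 or more sites in a library. Of these windows 2.27% passed as lower in Integrator and SOSS and 0.227% as higher, and the cluster ranked 14 by p. An exact two-sided permutation test of 6 against 5 libraries gave p = 0.00649 for the cluster alone. Against NELF without SPT5 the difference was -2.26 (SE 0.45), with a limma adjusted p of 0.00702. The limma call was lost, with adjusted p-values of 0.0506 to 0.0779, when INTS9, INTS11, NELFA, NELFB, NELFCD or NELFE was left out in turn, while the difference stayed between -2.26 and -1.72 over all 11 such fits.

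Each of the 3 windows of 25 kb that make up the cluster was lower in Integrator and SOSS. The left window, with Hist2h2ab, Hist2h2ac and Hist2h2be, had a log2 difference of -2.13 (limma adjusted p = 0.0015). The middle window, with the 4 copied genes, had -1.70 (limma adjusted p = 0.00651), and the right window, with Hist2h4, Hist2h3b and Hist2h2bb, had -2.06 (limma adjusted p = 0.00129). Among the 291 windows of this size tested, 16.8% passed as lower and 1.03% as higher.

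Few sites recurred between libraries. The 820 sites fell on 784 combinations of position and strand, of which 751 were found in 1 library, 30 in 2 and 3 in 3. Of the 33 that recurred, 6 were shared by Integrator and SOSS libraries alone, 11 by NELF and SPT5 libraries alone and 16 by libraries of both sides. The 3 positions found in 3 libraries are shown with 15 bases before and 14 after, on the strand of the deposited entry, with the deposited junction base in capitals.
chr3:96024471-96024500, minus strand, in INTS11, INTS3, INTS9: aacgacgaggagctcAacaagctgctgggc
chr3:96050039-96050068, plus strand, in INTS9, NELFA, NELFB: aaaagtaagagtgtcGtgtcctctgcttcc
chr3:96074257-96074286, minus strand, in NABP2, NELFA, SPT5: gggctggtagtcttgGgttatataagagag

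The first of these lies inside the coding sequence of Hist2h2ac. The second lies between the stem-loop of Hist2h2aa1 and the start codon of Hist2h3c1, inside the annotated model of Hist2h3c1. It too is next to a repeated segment, which ends at 96050053. The third lies past the stem-loop of Hist2h2bb, next to the long repeated segment.

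Gene by gene, sites were counted over each annotated gene with 1 kb on each side, a window that spans both ends of these short genes. Of the 12 annotated genes that touch the region, 10 averaged 3 or more sites in a library and were tested. Of these, 3 passed as lower in Integrator and SOSS and 0 as higher by limma with Benjamini-Hochberg adjustment over 5908 genes, and at an unadjusted p under 0.05 there were 7 lower and 0 higher. Of all genes tested 2.67% passed as lower and 0.339% as higher. With voom weights in limma, 4 passed as lower and 0 as higher, where 6.82% of all genes tested passed as lower and 0.457% as higher. Neighbouring genes share part of their windows. With 2 kb on each side Gm15444, Hist2h2ab, Hist2h2ac, Hist2h3c2, Hist2h4 and Hist2h2bb passed as lower too, where 2.77% of all genes tested at that width did.

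Hist2h2be (chr3:96025044-96027661, plus strand, ENSMUSG00000068854.6) codes for an H2B whose human counterpart is also made as a polyadenylated mRNA. It had 4.06 sites per 100000 in INTS9, 5.89 in INTS11, 8.31 in INTS3, 4.25 in NABP1, 9.07 in NABP2 and 4.01 in INIP, against 23.2 in NELFA, 16.1 in NELFB, 24.2 in NELFCD, 85.3 in NELFE and 8.53 in SPT5. NABP2 was above SPT5, and all NELF libraries were above all Integrator and SOSS libraries. The log2 difference was -1.88 (SE 0.47, limma adjusted p = 0.0206), and NELFE stood far above the other NELF libraries. The call was lost when INTS9, NELFA, NELFCD or NELFE was left out in turn, with limma adjusted p-values of 0.0534 to 0.0779, and without NELFE the difference was -1.42.

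Hist2h2aa1 (chr3:96049461-96050038, plus strand, ENSMUSG00000063954.6) codes for an H2A. It had 1.52 in INTS9, 0 in INTS11, 1.04 in INTS3, 2.12 in NABP1, 4.53 in NABP2 and 0 in INIP, against 29.9 in NELFA, 6.46 in NELFB, 7.27 in NELFCD, 26.7 in NELFE and 3.66 in SPT5, all per 100000. Again only SPT5 fell within the range of the Integrator and SOSS libraries, below NABP2. A count of 0 allows up to 8.84 per 100000 in INTS11 and 12.05 in INIP (3 counts). The log2 difference was -2.50 (SE 0.68, limma adjusted p = 0.0347). The call was lost when INTS9, INTS11, INTS3, INIP, NELFB or NELFCD was left out in turn, with limma adjusted p-values of 0.0533 to 0.0736, and without NELFA or NELFE the gene was too sparse to be tested. Its copy Hist2h2aa2 (chr3:96043639-96044216, minus strand) was too sparse to be tested. It had 2 sites in all Integrator and SOSS libraries and 23 in NELF and SPT5, and the observed values of the sides did not overlap. INTS11 and INIP were at 0 there too, and NELFB was at 3.23 per 100000. The limits of 8.84 in INTS11 and 12.05 in INIP lie above that, so the separation is not resolved for these libraries.

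Hist2h3c1 (chr3:96049477-96052431, plus strand, ENSMUSG00000070392.2) codes for an H3, and its annotated model runs over Hist2h2aa1. It had 6.09 in INTS9, 2.95 in INTS11, 11.4 in INTS3, 11.1 in NABP1, 26.1 in NABP2 and 4.01 in INIP, against 43.2 in NELFA, 25.8 in NELFB, 21.8 in NELFCD, 47.99 in NELFE and 15.8 in SPT5, all per 100000. NABP2 reached into the range of the other side. The log2 difference was -1.69 (SE 0.44, limma adjusted p = 0.0277). The call was lost when INTS9, INTS11, INIP, NELFA, NELFB or NELFE was left out in turn, with limma adjusted p-values of 0.0619 to 0.0934.

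The other tested genes did not pass at this width. Hist2h4 (chr3:96065627-96067234, minus strand) had 7.02 ± 5.18 per 100000 in Integrator and SOSS and 21.2 ± 15.8 in NELF and SPT5, a log2 difference of -1.65 (SE 0.57, limma adjusted p = 0.121). Hist2h2bb had 12.7 ± 6.48 in Integrator and SOSS and 33.5 ± 20.8 in NELF and SPT5 (log2 difference -1.28, limma adjusted p = 0.0772). Hist2h3b had 4.51 ± 3.37 in Integrator and SOSS and 12.4 ± 6.97 in NELF and SPT5 (-1.44, limma adjusted p = 0.24). Hist2h3c2 had 4.89 ± 4.27 in Integrator and SOSS and 6.99 ± 8.99 in NELF and SPT5, with a log2 difference of 0.14 (SE 0.80, limma adjusted p = 0.954). The means and the log2 difference thus point opposite ways, and INIP, NELFB and NELFCD were at 0. With 2 kb on each side the log2 difference was -1.77. Of the genes that are not histone genes, the long transcript Gm15444, which overlaps Hist2h2ab on the other strand, did not pass (-1.66, limma adjusted p = 0.144). Fcgr1, the gene of the high-affinity Fc gamma receptor at the right edge, had 10 sites on the Integrator and SOSS side and 0 in NELF and SPT5 and was too sparse to be tested. The mean in Integrator and SOSS was 1.96 ± 2.21 per 100000, with INTS9 and INIP at 0. A count of 0 in 203125 sites allows 1.48 per 100000 in NELF and SPT5, so no difference is drawn from these counts.

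Histone genes of the other clusters were also lower in Integrator and SOSS. Of 58 annotated Hist1, Hist3 and Hist4 genes 48 were tested, and 46 passed as lower, where 2.67% of all genes tested did. The median log2 difference of the 48 was -2.95, against -1.54 over the 10 tested genes of the Hist2 region and 0.11 over all genes tested. Whether the clusters differ in this was not tested.

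Sites near the histone genes lay past the gene end more often in Integrator and SOSS than in NELF and SPT5. With the annotated bodies, and each site given to its nearest histone gene, the share of sites within 2 kb that lay past the end was 41.7% in INTS9 (of 24), 60% in INTS11 (of 5), 50% in INTS3 (of 34), 61.0% in NABP1 (of 41), 77.8% in NABP2 (of 36) and 100% in INIP (of 1). It was 18.6% in NELFA (of 43), 42.3% in NELFB (of 52), 27.3% in NELFCD (of 44), 28.6% in NELFE (of 42) and 43.2% in SPT5 (of 44). INTS9 fell below NELFB and SPT5, and the other Integrator and SOSS libraries lay above all 5. The mean was 65.1% ± 21.0 in Integrator and SOSS (SD, n = 6) and 32.0% ± 10.5 in NELF and SPT5 (SD, n = 5). That is a difference of 33.1 percentage points (exact two-sided permutation p = 0.0152). The permutation p adjusted by Benjamini-Hochberg was 0.0227 over the 3 shares planned first. Over all 10 tests of shares, as used below, it was 0.0168, a lower value because tests added later had smaller p-values. Within 1 kb of annotated bodies the difference was 12.1 points and did not pass (exact permutation p = 0.476, INIP without a value). For Hist2h4, whose flanks meet no other histone gene, it was 46.9 points (exact permutation p = 0.0238, INIP again without a value).

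Annotated models in the cluster differ in kind, some ending at the stop codon and some running for kilobases. Each gene was therefore also reduced to a unit from its start codon to the end of its stem-loop, which was decided on with the data in view. Where no stem-loop match was found, as at Hist2h2be, the unit ended at the stop codon. Each site outside the units was given to the nearest one. Of the sites within 2 kb of a unit, 64.1% lay past its end in INTS9 (of 39), 80% in INTS11 (of 10), 63.04% in INTS3 (of 46), 76.1% in NABP1 (of 67), 83.3% in NABP2 (of 54) and 100% in INIP (of 3). In NELFA the share was 41.4% (of 58), in NELFB 38.3% (of 47), in NELFCD 38.5% (of 52), in NELFE 42.6% (of 54) and in SPT5 50% (of 54). Every Integrator and SOSS library lay above every NELF library and above SPT5.

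The mean was 77.8% ± 13.7 in Integrator and SOSS (SD, n = 6) and 42.1% ± 4.77 in NELF and SPT5 (SD, n = 5), a difference of 35.6 percentage points (exact two-sided permutation p = 0.00216, the smallest this design allows, adjusted p = 0.00541). With 1 kb, Integrator and SOSS had 80.6% ± 11.5 and NELF and SPT5 35.2% ± 7.61 (exact permutation p = 0.00216, adjusted p = 0.00541). Leaving out each of the 10 genes or 11 libraries in turn kept the difference between 30.6 and 40.6 points.

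**Figure D2:**
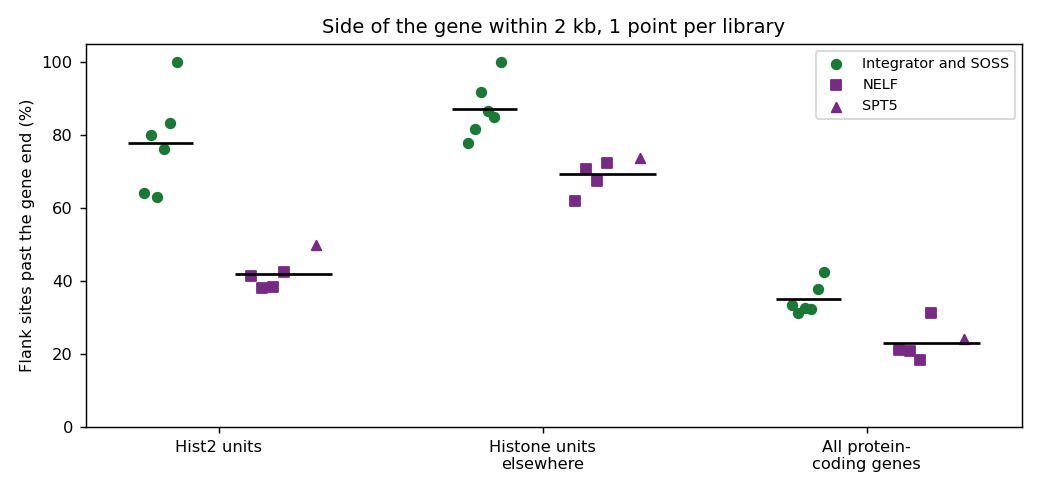
Share of sites within 2 kb of a gene that lie past its end (vertical axis, percent) for the 10 Hist2 units, the 57 histone units elsewhere and all protein-coding genes. Each point is 1 library, circles for Integrator and SOSS, squares for NELF and triangles for SPT5, and lines are the means of each side: at Hist2 77.8% for Integrator and SOSS and 42.1% for NELF and SPT5, with no overlap.

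Sites in front of the genes were scarcer in Integrator and SOSS than sites just behind them, compared with NELF and SPT5. In the 1 kb before the start codon INTS9 had 4.06 sites per 100000 over all 10 units, INTS11 5.89, INTS3 9.34, NABP1 3.71, NABP2 6.80 and INIP 0, against 73.1 in NELFA, 16.1 in NELFB, 24.2 in NELFCD, 117 in NELFE and 28.04 in SPT5. The sides did not overlap, and the mean of Integrator and SOSS was 0.096 times that of NELF and SPT5. In the 1 kb past the end INTS9 had 10.7, INTS11 20.6, INTS3 18.7, NABP1 20.7, NABP2 30.6 and INIP 8.03, against 39.9 in NELFA, 9.69 in NELFB, 19.4 in NELFCD, 63.99 in NELFE and 8.53 in SPT5. There the sides overlapped, and the ratio of means was 0.644. From 1 to 2 kb before the start codon the means were 3.25 ± 3.13 in Integrator and SOSS and 44.7 ± 26.3 in NELF and SPT5, a ratio of 0.0728, but the sides overlapped, with INTS3 at 8.31 and SPT5 at 4.88. From 1 to 2 kb past the end they parted again, at 7.86 ± 7.004 in Integrator and SOSS and 40.1 ± 13.99 in NELF and SPT5, with a ratio of 0.196 and no overlap.

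**Figure D3:**
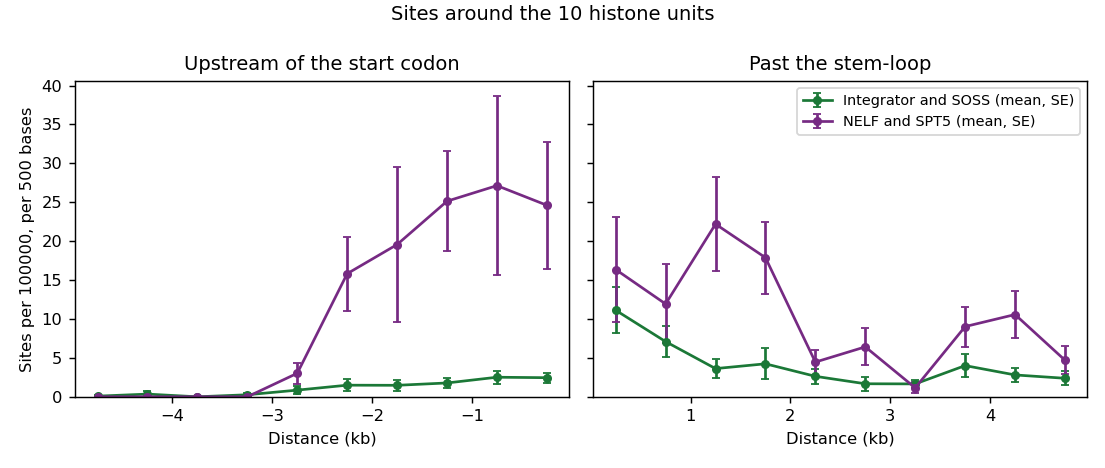
Sites per 100000 in steps of 500 bases before the start codon (left) and past the end of the unit (right) of the 10 Hist2 units, as mean and SE over 6 Integrator and SOSS libraries (green) and 5 NELF and SPT5 libraries (purple). The green line is highest in the 500 bases past the end, at 11.1, where the purple line is at 16.4, while in the 500 bases before the start codon the green line stands at 2.45 and the purple line at 24.6.

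Inside the units lay 10.4% ± 3.22 of the cluster's sites in Integrator and SOSS and 3.34% ± 3.57 in NELF and SPT5 (exact permutation p = 0.0108, adjusted p = 0.0155). NELFA and NELFB had 0 sites inside units, and NELFE had 7, at 8.43% of its sites, and SPT5 had 4, at 5%, both above the 4.76% of INTS11. With annotated bodies, which take in the sequence past several stem-loops, Integrator and SOSS had 48.9% ± 5.38 and NELF and SPT5 29.1% ± 11.4 (exact permutation p = 0.00216). The adjusted permutation p was 0.00649 over the 3 shares planned first and 0.00541 over all 10. On the plus strand lay 47.5% ± 12.1 of the sites in Integrator and SOSS and 49.01% ± 2.83 in NELF and SPT5 (exact permutation p = 0.773), with a difference of -1.48 points that fell on the other side of 0 when INTS9 or INIP was left out.

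Hist2h4 has no other histone gene within its flanks. In the 2 kb before its start codon INTS9 had 0.507 sites per 100000, INTS3 3.11 and NABP1 1.59, and INTS11, NABP2 and INIP had 0, against 36.5 in NELFA, 12.9 in NELFB, 19.4 in NELFCD, 42.7 in NELFE and 7.31 in SPT5. Every NELF library and SPT5 lay above every Integrator and SOSS library in the observed values. A count of 0 allows up to 8.84 per 100000 in INTS11 and 12.05 in INIP, above the 7.31 of SPT5. The order of these libraries against SPT5 is therefore not resolved. In the 2 kb past its stem-loop INTS9 had 2.54, INTS11 8.84, INTS3 11.4, NABP1 9.02, NABP2 4.53 and INIP 0, against 9.96 in NELFA, 12.9 in NELFB, 9.69 in NELFCD, 37.3 in NELFE and 6.09 in SPT5. Here the sides overlapped. In sites, Integrator and SOSS had 7 before and 40 past the gene, and NELF and SPT5 had 37 before and 23 past it.

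Hist2h3c1 and its copy Hist2h3c2 point away from each other, and their upstream sides fall in repeated sequence next to the H2A genes, where no site was given to them. Past the stem-loop of Hist2h3c1 Integrator and SOSS had 53 sites, with 4.57 per 100000 in INTS9, 2.95 in INTS11, 8.31 in INTS3, 7.96 in NABP1, 21.5 in NABP2 and 4.01 in INIP. NELF and SPT5 had 29, with 16.6 in NELFA, 19.4 in NELFB, 12.1 in NELFCD, 21.3 in NELFE and 10.97 in SPT5. NABP2 was at the top of all libraries there. Past Hist2h3c2 NABP2 was again the highest of its side, at 15.9, and the means were 6.47 ± 4.83 in Integrator and SOSS and 13.6 ± 5.51 in NELF and SPT5.

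The copied H2A genes had their sites in front. Before Hist2h2aa1 Integrator and SOSS had 17 sites, at 1.96 ± 1.73 per 100000, and NELF and SPT5 had 34, at 21.3 ± 9.73. Before Hist2h2aa2 Integrator and SOSS had 11, at 1.59 ± 1.95, and NELF and SPT5 had 33, at 20.2 ± 10.5. Past Hist2h2aa1 there were 2 sites in Integrator and SOSS and 4 in NELF and SPT5, and past Hist2h2aa2 there was 1 in Integrator and SOSS and 2 in NELF and SPT5, where the next gene is close and repeated segments cover much of the gap.

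**Figure D4:**
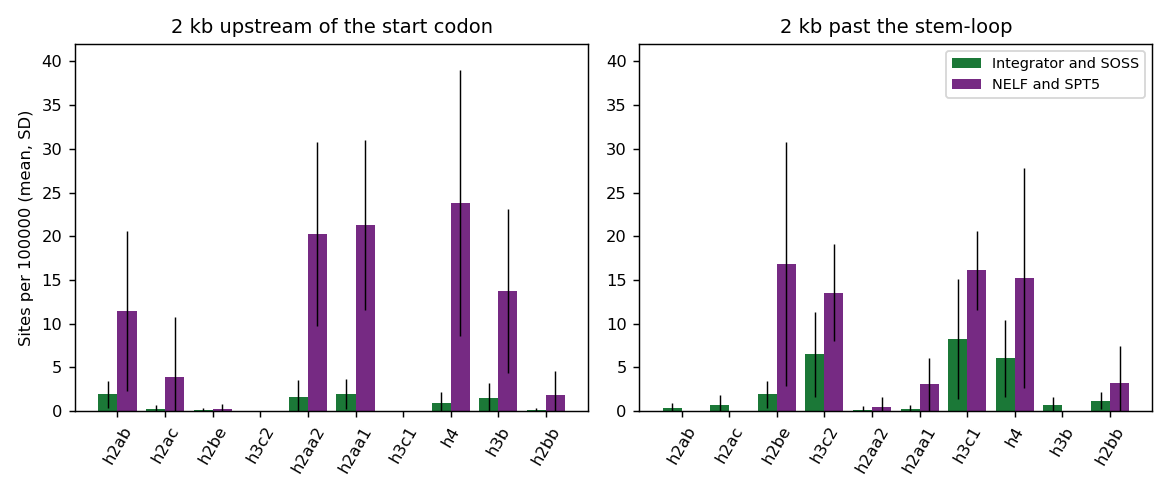
Sites per 100000 (vertical axes, linear, mean and SD) in the 2 kb before the start codon (left) and past the end (right) of each of the 10 Hist2 genes, for 6 Integrator and SOSS libraries (green) and 5 NELF and SPT5 libraries (purple). Before Hist2h4 the green bar stands at 0.869 and the purple bar at 23.8, and past it they stand at 6.06 (green) and 15.2 (purple).

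At the left end, Hist2h2ab and Hist2h2ac meet tail to tail with few bases between their stem-loops. Before Hist2h2ab there were 11 sites in Integrator and SOSS and 17 in NELF and SPT5, or 1.92 ± 1.55 per 100000 in Integrator and SOSS and 11.4 ± 9.15 in NELF and SPT5. Inside it there were 7 sites in Integrator and SOSS and 0 in NELF and SPT5, which is not a detectable difference, since 0 of 203125 sites allows 1.48 per 100000 and the 7 sites amount to 1.11. Past Hist2h2be, Integrator and SOSS had 10 sites in 5 of 6 libraries, at 1.93 ± 1.54, and NELF and SPT5 had 24 in 5 of 5, at 16.8 ± 13.98.

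At the right end, Hist2h3b had 9 sites before it in Integrator and SOSS and 22 in NELF and SPT5, or 1.53 ± 1.68 per 100000 in Integrator and SOSS and 13.7 ± 9.35 in NELF and SPT5. Past its stem-loop there were 7 sites in Integrator and SOSS and 0 in NELF and SPT5, which at 1.11 per 100000 against a limit of 1.48 is again not a detectable difference. Inside it there were 0 in Integrator and SOSS, which over the pooled libraries allows 0.477 per 100000. NELF and SPT5 had 4 there, from 3 libraries, with a mean of 2.86 ± 4.48 per 100000. Whether the sides differ there was not tested. Inside Hist2h2bb, the H2B gene, Integrator and SOSS had 18 sites, with 0.507 per 100000 in INTS9, 0 in INTS11, 5.19 in INTS3, 2.65 in NABP1, 6.80 in NABP2 and 4.01 in INIP, and NELF and SPT5 had 0. Pooled over libraries that is 2.86 per 100000, which is 1.94 times the limit of 1.48 for NELF and SPT5. Counting error of the 18 sites and the spread between libraries are left aside, so this is not a bound on the difference. In NELFE, the smallest library, a count of 0 on its own allows up to 15.997 per 100000.

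Along the cluster in steps of 1 kb, the 3 bins with the highest mean were not the same on each side. They were picked for these same counts, and whether the sides differ in them was not tested. The bin from 96052000 ranked 1 in Integrator and SOSS and 8 in NELF and SPT5. That from 96078000 ranked 3 in NELF and SPT5 and 5 in Integrator and SOSS. The 3 bins with the highest mean in Integrator and SOSS began at 96052000, 96066000 and 96024000. Integrator and SOSS had 25, 25 and 18 sites in them, and NELF and SPT5, with fewer sites in the genome, had 19, 1 and 11. Per 100000, the bin from 96052000 averaged 4.45 in Integrator and SOSS and 10.7 in NELF and SPT5. That from 96024000 averaged 3.40 in Integrator and SOSS and 8.34 in NELF and SPT5. The first of the bins lies past the stem-loop of Hist2h3c1, the second holds the end of Hist2h4 and the sequence just past it, and the third holds Hist2h2ac and the end of Hist2h2ab that faces it. In the bin from 96066000 Integrator and SOSS averaged 4.03 ± 3.33 per 100000, with sites in 5 of 6 libraries, and NELF and SPT5 0.244 ± 0.545, from 1 site of SPT5.

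The 3 bins with the highest mean in NELF and SPT5 began at 96068000, 96065000 and 96078000. Integrator and SOSS had 4, 14 and 16 sites in them, and NELF and SPT5 had 24, 21 and 24. The first of them lies before the start of Hist2h4, the second farther past its stem-loop and the third inside the long annotated model of Hist2h2bb, beyond the repeated segment. In the bin from 96068000 Integrator and SOSS averaged 0.523 ± 0.871 per 100000, from 2 of 6 libraries, and NELF and SPT5 16.9 ± 14.03, from 5 of 5. NELFCD gave 13 of the 24 sites from 96078000. A further bin, chosen after its values had been seen, began at 96051000 and holds the stem-loop of Hist2h3c1. Integrator and SOSS had 25 sites there from 4 libraries, and NELF and SPT5 had 0. A repeated segment covers the bin up to 96051239. Since the bin was picked for these counts, no bound on the difference is drawn from them. Of the 75 bins, 7 held no site, 16 were hit by Integrator and SOSS alone and 4 by NELF and SPT5 alone, with 628869 sites of the genome in Integrator and SOSS and 203125 in NELF and SPT5.

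**Figure D5:**
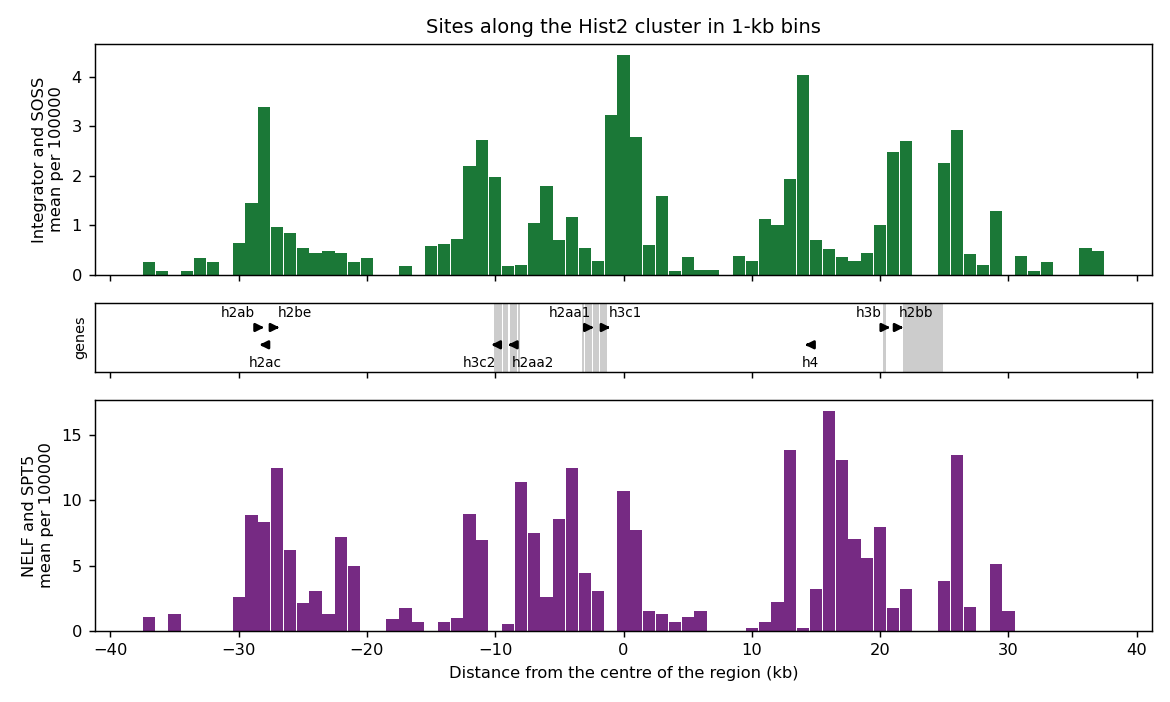
Mean sites per 100000 in bins of 1 kb (vertical axes, linear, with different scales) along the Hist2 cluster, for Integrator and SOSS (top) and NELF and SPT5 (bottom), against the distance from the centre of the region. The middle strip shows the 10 histone genes as arrows in the direction of transcription and repeated segments in grey, and the highest green bars stand past Hist2h3c1 (4.45) and at the end of Hist2h4 (4.03), the highest purple bar before Hist2h4 (16.9).

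The shift to the far side of the gene was not confined to Hist2, but it differed in size. At the 57 histone units elsewhere in the genome, of which 51 had a stem-loop match, 87.2% ± 7.85 of the sites within 2 kb lay past the end in Integrator and SOSS and 69.3% ± 4.65 in NELF and SPT5 (exact permutation p = 0.00433, adjusted p = 0.00866). At protein-coding genes as annotated, 35.1% ± 4.30 of such sites lay past the end in Integrator and SOSS and 23.2% ± 4.90 in NELF and SPT5 (exact permutation p = 0.00216, adjusted p = 0.00541). Within each library, the Hist2 share minus that at other histone units was -9.43 ± 11.03 points in Integrator and SOSS and -27.2 ± 4.77 points in NELF and SPT5, and this difference itself passed (17.7 points, exact permutation p = 0.0152, adjusted p = 0.0168). The sides overlapped, with -28.9 to 0 points in Integrator and SOSS and -32.4 to -20.7 in NELF and SPT5. INTS3 was the lowest of its side. INIP, at 100% in both shares, rests on 3 sites at Hist2 and 9 at the other histone units. The Hist2 share minus that at protein-coding genes was 42.7 ± 10.6 points in Integrator and SOSS and 18.9 ± 5.28 in NELF and SPT5 (exact permutation p = 0.00649, adjusted p = 0.0108). This sets Hist2 units against genes as annotated, which are unlike definitions. With annotated bodies the Hist2 share was 65.1% in Integrator and SOSS and 32.0% in NELF and SPT5, and the comparison was not repeated with those.

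Libraries sequenced in separate runs gave densities over the cluster with overlapping intervals. INTS9 had 35.7 sites per 100000 on a HiSeq flow cell (95% exact Poisson interval 27.4 to 45.6) and 29.4 on a GA flow cell (10.8 to 63.9). NABP1 had 65.2 on both, and NABP2 had 94.6 (73.6 to 120) and 124 (74.6 to 194). With GA runs alone, which leaves SPT5 out, the difference between the sides was -2.25 on the log2 scale (limma adjusted p = 0.00047).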

How the data were processed

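HIV integration sites of 11 libraries were deposited as lists of positions with no count or signal column. Per the file headers, an entry gives the genome position next to the viral LTR and its strand, which is the other kind of value used here. The read name is followed by 2 numbers of unstated meaning. The first, never below 2, was taken as a read number in 1 alternative only. The submitters' processing notes name mm9 as the build. For aligner and read filters: not given in the sources used here. Repeated entries (873534 in all) were collapsed to distinct positions and strands, repeat runs were joined, and coordinates are 1-based. Genes came from GENCODE for the same assembly.

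Site counts per 100000 were compared by limma 3.58.1 in R 4.3.3 (trend and robust settings, pseudocount 1, Benjamini-Hochberg threshold 0.05) over all windows of 75 kb or genes with 1 kb on each side, and shares by exact two-sided permutation. Windows needed a mean of 10 sites over the libraries and genes a mean of 3. Named genes are all that overlap the region and are not pseudogenes, with Hist2h3c2, listed as one, added after its values were seen, and named bins are the 3 highest of each side. The members, lists and tests were chosen with earlier results of these data known, and the units from start codon to stem-loop were added later still. The unit annotation by stem-loop used the motif given with the sequences. A sequence of 50 bases was called repeated if it occurred elsewhere in mm9. A further upstream sequence is not reported here.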

Additional observations from a re-analysis of the deposited data

Results flagged for a closer look

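Among 51 groups of 4 libraries examined for a library far from the others (Dixon's test), 2 stood out, and chance gives about 1 in 20. NELFE had 85.3 sites per 100000 over Hist2h2be with 1 kb on each side, against 16.1 to 24.2 in the other NELF libraries. INIP had 28.6% of its sites in the cluster on the plus strand, against 52.3% to 55.7% in the other SOSS libraries, from 7 sites in all.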

How the results depend on the processing

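The density of the Hist2 cluster was lower in Integrator and SOSS under each of the 31 settings tried, and it missed the threshold in 10 of them. The log2 difference was -1.96 with adjusted limma p of 0.0676 when windows averaging 5 sites were tested and of 0.0506 with no minimum, -1.75 (0.0566) when libraries were thinned to the size of NELFE, and -1.72 (0.0809) without INIP and INTS11, a choice made after their low counts in the cluster were seen. Leaving out 1 library at a time gave -2.26 to -1.72. The cause was not tested, except that a lower minimum tests more windows. Windows past the threshold, 22 in the report, numbered 36 with pseudocount 5, 11 and 9 with the lower minimum and none, 66 with voom weights, 52 with 25 kb and 9 to 37 with 1 library left out. Genes past it, 178 in the report, numbered 10 with a minimum of 10, 0 with no minimum, 93 and 299 with pseudocounts 0.5 and 5, 430 with voom, 116 against NELF alone, and 91 to 172 with 1 library left out.

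Hist2h3c2 turned to -1.77 with 2 kb on each side, -1.92 with 5 kb and -0.077 with pseudocount 5, and lay between -0.37 and 0.75 with 1 library left out. The call for Hist2h3c1, Hist2h2aa1 and Hist2h2be was lost in 9 of 20, 8 of 17 and 5 of 19 settings that tested the gene. Hist2h2aa1 was too sparse in 3 further settings (without NELFA, without NELFE and with a minimum of 10) and Hist2h2be in 1 (the same minimum). The share past the gene end kept its direction in all 43 settings and missed the threshold in 1, annotated bodies with 1 kb, at 12.1 points. Most of these settings were variants of the units, which were added with the data in view. The threshold was applied here to the unadjusted permutation p. The share on the plus strand lay between -3.40 and 2.31 points with 1 library left out. No paired analysis was possible because each protein has 1 library and replicate numbers only name it.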
